A study of Mus musculus with 15 samples.

Results

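Chromatin accessibility soon after activation of Fra2 (gene Fosl2) was compared between 3 early Fra2 libraries and 3 early control libraries. The groups were taken from the sample labels, and these 6 libraries are part of the 15 in the series. All were Omni-ATAC-seq libraries, in which a transposase cuts accessible DNA, from mouse embryonic fibroblasts labelled C57/B16 background. Both groups carried a CRISPRa-VPR-mCherry construct, an inactive Cas9 system fused to a transcriptional activator, and both were infected with lentivirus and sorted as mCherry+/THY1+ cells. They differed in the guides: Fra2 gRNAs in one group and a scrambled control in the other. Sample labels date the cells to day 3 after infection, the series text to day 4, and early control 3 alone among the 6 is labelled day 4 and carries a differently worded source label. The sort keeps infected THY1+ cells only. Nothing in the labels says that replicates came from separate embryos or cultures, and the p-values then describe only the spread among these libraries, possibly technical.

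Fra2 is a FOS-family subunit of AP-1. It lacks the strong activation domain of FOS, and binds DNA as a dimer with a JUN protein at the sequence TGA, any base, TCA. AP-1 sites are common in enhancers of fibroblasts and are rarer at promoters, and AP-1 is induced by growth factors, stress and MAP kinase signalling. Accessibility shows where the chromatin is open and does not measure the amount of Fra2 RNA or protein. In bulk libraries, fewer cells with an open site and less opening per cell cannot be told apart.

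Reads in the 206367 consensus peaks came to 19.39, 13.97 and 6.75 M reads in early controls 1, 2 and 3, and to 21.64, 12.67 and 13.59 M in the Fra2 libraries. Across peaks, log2 CPM (counts per 1 M reads in peaks) of the Fra2 libraries correlated pairwise at 0.896 to 0.921 and those of controls 1 and 2 at 0.925. Control 3, the shallowest of the 15 libraries, correlated at 0.783 and 0.789 with the other controls and at 0.694 to 0.711 with the Fra2 libraries. Results are therefore given with it and, where they move, without it. No pair of libraries agreed within counting noise, and a count of 3 reads, the limit of a count of 0, corresponded to 0.142 to 0.42 CPM. These limits cover counting error only.

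Early Fra2 libraries had 20799 peaks higher and 10140 peaks lower than the controls, of 206349 tested (edgeR quasi-likelihood test, Benjamini-Hochberg adjusted p under 0.05). These are 10.1% and 4.91% of peaks. The fit shared its spread over all 15 libraries of the series. From the 6 early libraries alone 11795 peaks were higher and 3204 lower, 56.7% and 31.6% of those calls. Higher peaks went from a median of 2.9 CPM in controls to 5.46 CPM with Fra2, and lower peaks from 4.66 to 2.65 CPM. A change above 2-fold, 1 on the log2 scale, was seen at 7756 higher and 2630 lower peaks. The groups did not overlap in CPM at 15.3% of peaks with Fra2 above and at 11.7% with Fra2 below. Without control 3 the calls were 24351 higher and 15967 lower, 11.8% and 7.74% of peaks, and 18535 of the higher calls (89.1% of those with all libraries, 76.1% of those without control 3) and 7619 of the lower calls (75.1% and 47.7%) were made in both fits.

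The split between gains and losses depended on the scaling of the libraries. With factors from all peaks, 67.2% of called peaks were higher, and the median log2 fold change over peaks was -0.03. With factors taken only from peaks within 1 kb of a gene end, the median moved to 0.17 and 92.5% of called peaks were higher, with 38036 peaks higher (18.4%) and 3074 lower (1.49%). A scaling that follows the level of each peak (cyclic loess) gave 24170 higher and 16813 lower, 59.0% higher. Fold changes below are on the first scale and the second scale shifts all of them upwards, so that a small loss on the first can be a gain on the second.

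**Figure D1:**
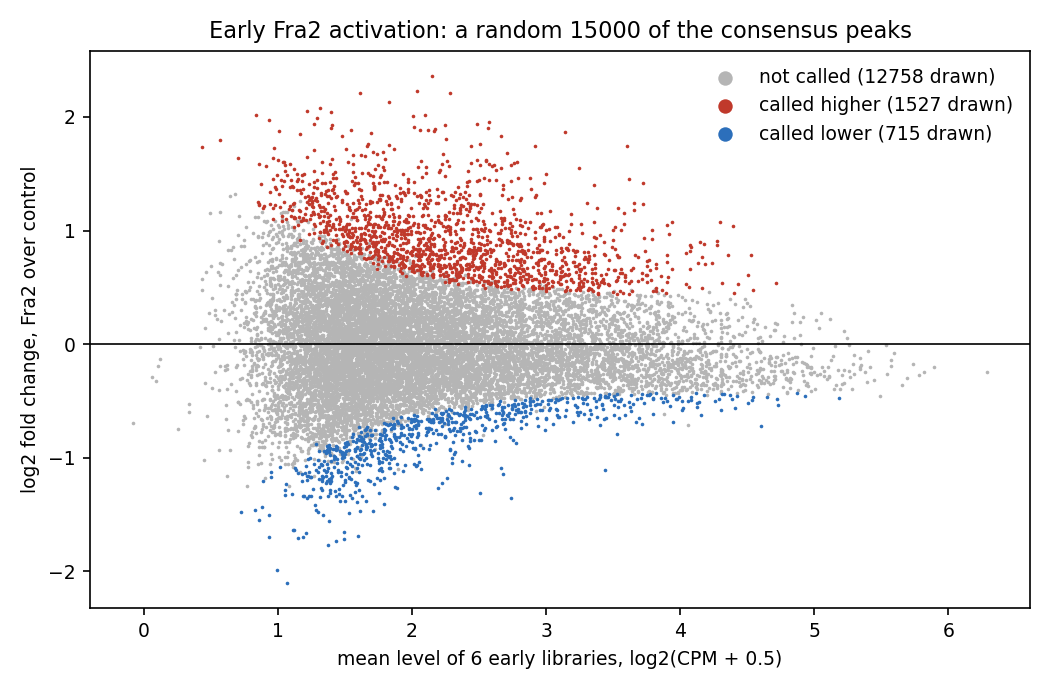
Each point is a consensus peak of a random draw, with its mean level on the x axis (log2 CPM) and the early Fra2 minus control log2 fold change on the y axis; colours mark peaks called higher, lower or not called. Higher peaks (20799) outnumber lower peaks (10140), and 15000 peaks are drawn.

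None of the 10 gains of smallest p, taken at 1 per gene, was at a promoter. These peaks, and the losses, promoters and gene sums of smallest p given after them, were taken only where the groups did not overlap and the call was also made without control 3, so both are conditions of the choice and not results. The peak of smallest p was in the body of Atg7, which encodes the E1-like enzyme of autophagy (chr6:114683160-114683661, mm10). It had 3.65, 3.34 and 3.36 CPM in controls and 16.3, 16.0 and 13.3 CPM with Fra2, so that log2 fold change and SE were 2.13 ± 0.17 (adjusted p = 3.58e-13 by edgeR). A peak in Tbc1d32, a gene of cilia, had 5.31, 4.79 and 2.24 CPM in controls and 20, 23.0 and 15.3 CPM with Fra2 (2.13 ± 0.18, adjusted p = 5.42e-13), with control 3 the lowest library. Others of the 10 peaks of smallest p lay 11.4 kb from Pold4, a small subunit of DNA polymerase delta (2.41 ± 0.20), 43.5 kb from Tbc1d19 (2.19), 85.7 kb from the amino acid transporter gene Slc6a15 (2.26), and in the bodies of the zinc finger gene Glis3 (2.30), of the kinase genes Csnk1g2 (2.34) and Cdc42bpa (2.37), of Sh3yl1 (2.26) and of 4932438H23Rik (2.25). Without control 3 the log2 fold changes of these 10 ranged from 1.93 to 2.63. A peak is listed with its nearest protein-coding gene, which need not be the gene it acts on.

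Among losses, the peak of smallest p was in the body of Celf2, an RNA-binding regulator of splicing, with 9.5, 9.28 and 5.32 CPM in controls and 2.99, 2.24 and 2.52 CPM with Fra2. The log2 fold change was -1.67 ± 0.20 (adjusted p = 1.05e-08). A peak 0.6 kb from Egr1, an immediate-early zinc finger factor, fell from 16.0, 13.5 and 16.0 CPM to 5.17, 8.31 and 4.83 CPM (-1.33 ± 0.17, adjusted p = 7.19e-08). Lower peaks of the same rank were assigned to Mllt3, a subunit of transcription elongation complexes (-2.09 ± 0.27), Jarid2, a partner of the Polycomb complex PRC2 (-1.62), Camta1 (-1.61), the potassium channel gene Kcnq1 (-1.41), the Cdc42 effector gene Trip10 (-1.41), the synaptic scaffold gene Ppfia3 (-1.30) and the lysosomal mannosidase gene Man2b2 (-1.29). Scaling on gene-end peaks left all of these peaks called, at -1.09 to -1.89.

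**Figure D2:**
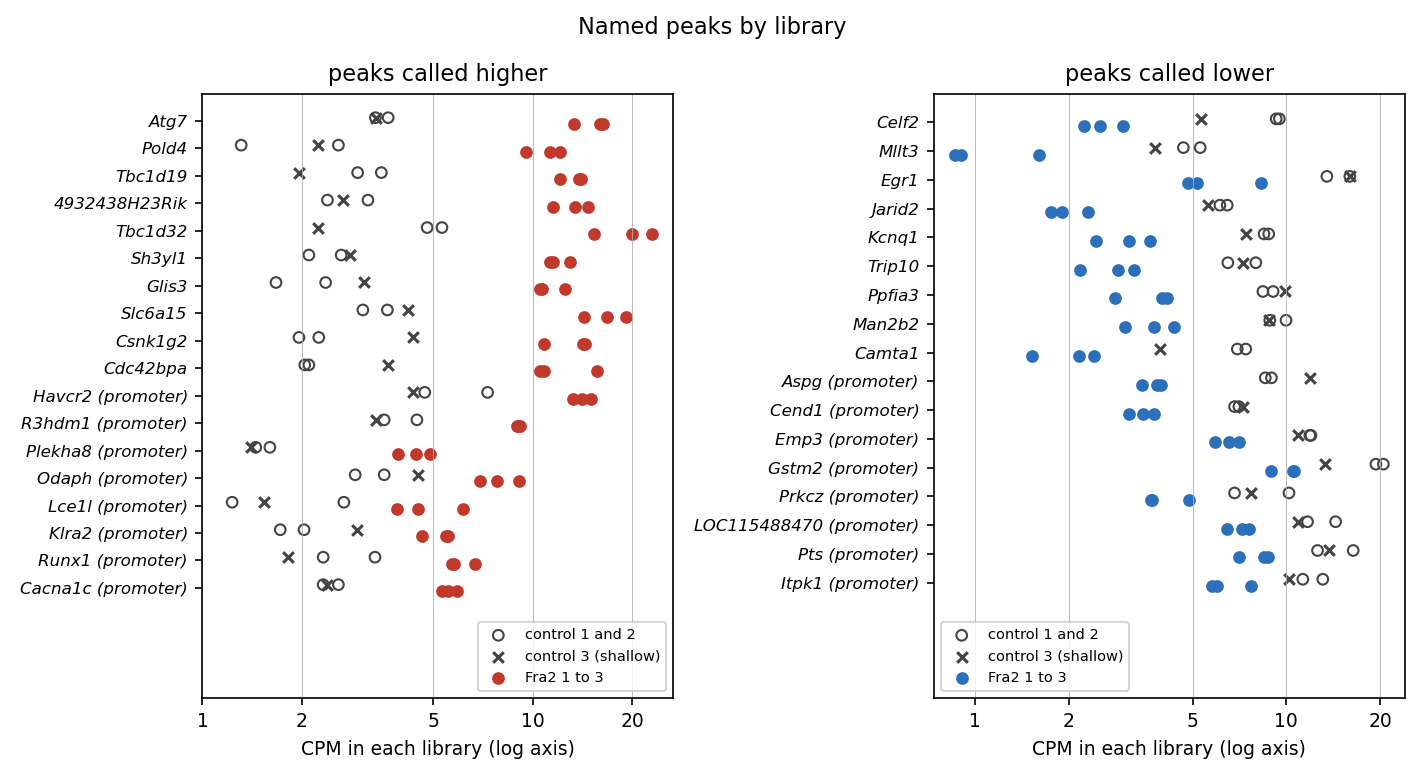
Levels (CPM, log axis) in the 6 early libraries of the peaks and promoter peaks of smallest adjusted p in each direction; points are libraries, and crosses are control 3. Peaks were chosen with groups that do not overlap, so the gap between groups follows from the choice; the Atg7 peak goes from 3.34 to 3.65 CPM in controls to 13.3 to 16.3 CPM with Fra2.

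At the targeted locus 9 of the 36 peaks nearest to Fosl2 were higher and 0 lower, against 10.1% and 4.91% over all peaks, and 6 of the 9 lay past the end of the gene. In a fit of the 6 early libraries alone 5 of these 9 were called. The peak over the Fosl2 promoter (chr5:32136166-32136667) had 9.82, 8.63 and 6.58 CPM in controls and 13.4, 14.9 and 9.80 CPM with Fra2. Its log2 fold change was 0.57 ± 0.16 (adjusted p = 0.0118; 0.0969 and not called from the 6 early libraries alone), and the lowest Fra2 library lay just below the highest control, so the groups overlapped. Summed over the 36 peaks, CPM was 252, 235 and 214 in controls and 257, 253 and 251 with Fra2. That sum did not pass the test (0.11 ± 0.05, adjusted p = 0.12), but passed with gene-end scaling (0.31, adjusted p = 4.76e-06). Where the guides bind is not given in the labels used here.

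Promoters moved differently from the rest of the genome. A promoter peak is one that overlaps the window from 250 bases before to 50 after a RefSeq start. Of 11563 such peaks, 104 (0.899%) were higher and 1147 (9.92%) lower, with a median log2 fold change of -0.25. Of 23437 peaks beyond 100 kb from a gene, 3744 (16.0%) were higher and 600 (2.56%) lower, with a median of 0.18. Peaks 10 to 100 kb away had 12.4% higher and 4.13% lower, and peaks in gene bodies 9.36% and 5.06%. The share of higher peaks climbed with distance from the start, from 0.688% within 250 bases to 6.49% at 1 to 5 kb and 11.6% at 50 to 100 kb.

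The number of promoter losses depended on the scaling and on 1 control. Without control 3, 116 promoter peaks were higher and 3940 (34.1%) lower. With gene-end scaling, which by construction sets these regions near 0, 273 were higher and 272 lower, at a median of -0.06, while peaks beyond 100 kb had 6354 higher and 209 lower. The share of each library's reads in promoter peaks was 16.56%, 15.97% and 13.67% in the controls and 13.52%, 13.29% and 12.27% in the Fra2 libraries, so control 3 lay just above the highest Fra2 library. In the late controls it was 13.74%, 15.51% and 15.62%. This share, often read as a sign of library quality, moved with the groups, and its part in the promoter result was not tested. The difference between promoters and distant peaks was in the same direction on each scale and without control 3.

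**Figure D3:**
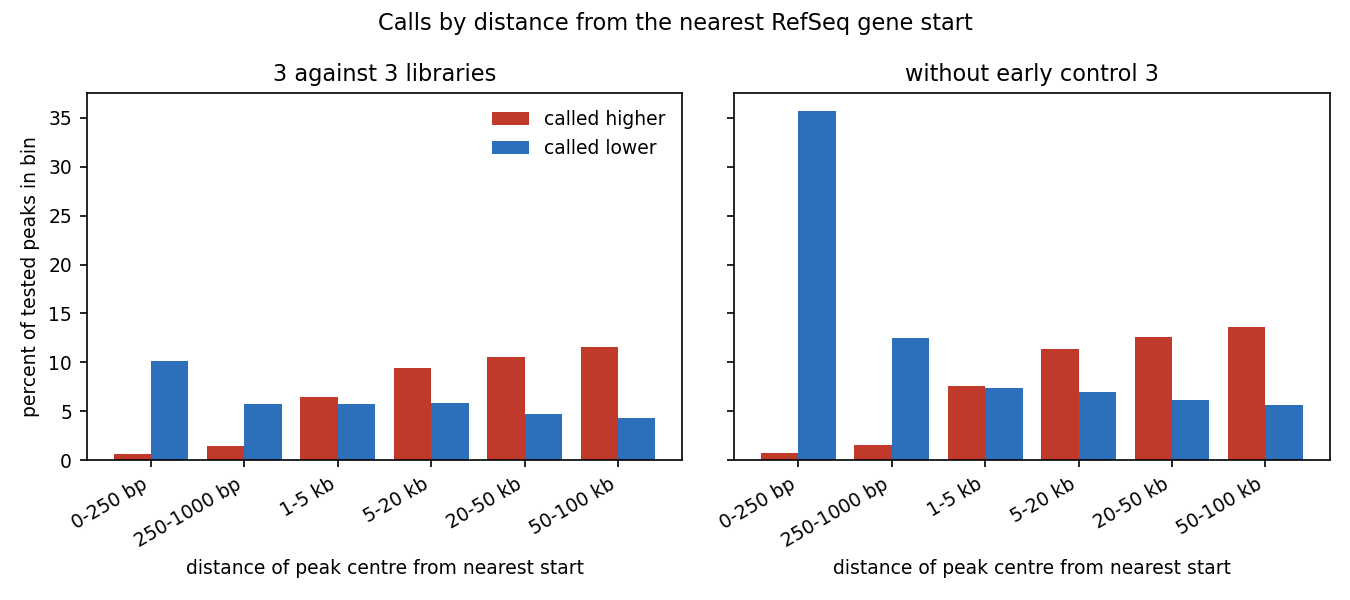
Bars give the percent of tested peaks called higher and lower (y axis) by distance of the peak centre from the nearest RefSeq start (x axis), with all 6 early libraries and without control 3. Within 250 bases, 10.1% of peaks were lower with all libraries and 35.7% without control 3.

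The sequence of the promoters that opened was examined because AP-1 binds a known motif. The motif searched was TGANTCA, on both strands, which as a palindrome reads alike on each. The search covered the promoter window a peak overlaps, not the whole peak. That window held the motif for 39 of the 104 higher promoter peaks (37.5%) and 34 of the 1147 lower ones (2.96%). It did so for 674 of all 11563 promoter peaks (5.83%), and the motif was in 1486 of 21262 promoter windows of protein-coding genes (6.99%). Of the 674, 601 were not called, and the median log2 fold change was -0.14, against -0.26 without the motif. Without control 3, 40 of them were higher and 134 lower (5.93% and 19.9%, against 0.698% and 35.0% without the motif). With gene-end scaling 85 were higher and 9 lower (12.6% and 1.34%, against 1.73% and 2.42%). Higher promoters were also poorer in G and C, with a median of 48.5% against 61.7% over all promoter peaks. Among promoter windows under 50% GC, 22 of 56 higher ones (39.3%) and 175 of 1179 in all (14.8%) held the motif. Between 50 and 60% GC these were 15 of 36 (41.7%) and 275 of 3727 (7.38%). The CRE-like motif TGACGTCA was in the windows of 0 of the 104 higher and of 349 of all promoter peaks (3.02%). A match describes these letters in these windows and is not a binding site.

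Promoter windows are shown for 4 higher peaks with the motif, 1 lower peak with it, and the target itself, to let the position and surroundings of the motif be seen. Sequences are from RefSeq, build GRCm38.p6, 5′ to 3′ along the gene, with TGANTCA matches in capitals. The match lay 200 bases before the start in Havcr2, 59 in Odaph, 6 in Klra2, 10 in Cpa4 and 109 in F11r, each inside the peak, and the Fosl2 window held none.
Havcr2 promoter, chr11:46454681-46454980, plus strand: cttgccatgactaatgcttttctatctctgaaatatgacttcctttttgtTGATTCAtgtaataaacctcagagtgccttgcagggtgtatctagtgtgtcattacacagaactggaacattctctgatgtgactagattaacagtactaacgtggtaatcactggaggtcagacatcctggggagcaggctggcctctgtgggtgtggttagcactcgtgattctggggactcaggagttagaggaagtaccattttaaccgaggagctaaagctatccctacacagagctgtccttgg
Odaph promoter, chr5:91987223-91987522, plus strand: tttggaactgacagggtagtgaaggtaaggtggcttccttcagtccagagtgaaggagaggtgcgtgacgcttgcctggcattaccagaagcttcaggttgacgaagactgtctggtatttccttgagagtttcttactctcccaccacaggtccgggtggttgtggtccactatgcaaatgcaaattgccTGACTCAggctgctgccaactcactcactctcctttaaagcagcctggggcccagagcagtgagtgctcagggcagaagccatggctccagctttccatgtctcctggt
Klra2 promoter, chr6:131247313-131247612, minus strand: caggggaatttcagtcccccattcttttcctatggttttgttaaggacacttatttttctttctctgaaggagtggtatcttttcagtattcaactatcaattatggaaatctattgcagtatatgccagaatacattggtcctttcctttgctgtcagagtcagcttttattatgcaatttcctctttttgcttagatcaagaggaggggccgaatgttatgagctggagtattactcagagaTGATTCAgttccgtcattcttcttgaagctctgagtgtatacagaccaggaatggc
Cpa4 promoter, chr6:30568119-30568418, plus strand: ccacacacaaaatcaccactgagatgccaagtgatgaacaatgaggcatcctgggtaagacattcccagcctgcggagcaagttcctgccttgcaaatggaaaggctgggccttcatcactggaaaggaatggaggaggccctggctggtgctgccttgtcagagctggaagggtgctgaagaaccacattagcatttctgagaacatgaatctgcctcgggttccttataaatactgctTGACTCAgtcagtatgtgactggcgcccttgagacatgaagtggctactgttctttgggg
F11r promoter, chr1:171437311-171437610, plus strand: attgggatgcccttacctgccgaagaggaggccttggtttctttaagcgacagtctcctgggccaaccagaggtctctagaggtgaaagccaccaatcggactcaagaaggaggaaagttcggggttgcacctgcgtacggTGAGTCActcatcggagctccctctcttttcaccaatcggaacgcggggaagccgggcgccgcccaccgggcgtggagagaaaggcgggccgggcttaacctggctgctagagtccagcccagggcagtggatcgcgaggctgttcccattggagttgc
Fosl2 promoter, chr5:32136222-32136521, plus strand: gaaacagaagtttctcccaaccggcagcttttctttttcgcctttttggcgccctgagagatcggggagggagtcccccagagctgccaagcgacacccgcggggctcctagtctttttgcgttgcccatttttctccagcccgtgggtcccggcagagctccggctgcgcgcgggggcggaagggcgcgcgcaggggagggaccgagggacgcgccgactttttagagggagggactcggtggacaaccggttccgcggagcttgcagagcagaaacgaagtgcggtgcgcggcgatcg

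Of these, Havcr2, which encodes the immune receptor TIM-3, had 7.30, 4.71 and 4.34 CPM at its promoter in controls and 15, 13.2 and 14.1 CPM with Fra2 (1.31 ± 0.17, adjusted p = 9.77e-08). The promoter of Odaph, a gene of tooth enamel, had 2.90, 3.55 and 4.48 CPM and then 7.79, 9.11 and 6.92 CPM (1.18 ± 0.19, adjusted p = 6.31e-06). Klra2, of the Ly49 natural killer receptor family, had 1.72, 2.03 and 2.94 CPM against 5.46, 5.52 and 4.61 CPM (1.31 ± 0.23, adjusted p = 3.44e-05). The promoter of the carboxypeptidase gene Cpa4 had 10.9, 9.5 and 6.16 CPM in controls and 18, 19.3 and 14.5 CPM with Fra2 (0.91 ± 0.17, adjusted p = 6e-05). The match did not fix the direction: at F11r, which encodes a junctional adhesion molecule, 9.98, 10.6 and 7.70 CPM in controls became 6.03, 5.12 and 5.76 CPM (-0.76 ± 0.17, adjusted p = 0.000861).

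Further promoters among the 8 of smallest p in each direction included those of Runx1 and Cacna1c, and of Aspg and Gstm2. Runx1, a transcription factor gene, had 3.33, 2.32 and 1.82 CPM in controls and 5.79, 5.68 and 6.70 CPM with Fra2 (1.19 ± 0.21, adjusted p = 3.54e-05). Cacna1c, which encodes an L-type calcium channel, had 2.58, 2.32 and 2.38 CPM against 5.89, 5.52 and 5.33 CPM (1.19 ± 0.21, adjusted p = 4.33e-05). R3hdm1 (1.22), the lipid-transfer gene Plekha8 (1.56) and the cornified envelope gene Lce1l (1.44) also rose. Downwards, the promoter of the asparaginase gene Aspg fell from 8.96, 8.56 and 11.9 CPM to 3.85, 3.44 and 3.96 CPM (-1.35 ± 0.20, adjusted p = 8.66e-07), and that of the glutathione transferase gene Gstm2 from 20.5, 19.4 and 13.3 CPM to 10.6, 8.95 and 10.5 CPM (-0.84 ± 0.16, adjusted p = 0.000148). Cend1 (-1.01), the kinase genes Prkcz (-1.03) and Itpk1 (-0.83), the membrane protein gene Emp3 (-0.83) and Pts (-0.82), an enzyme of tetrahydrobiopterin synthesis, fell too.

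Counts were also summed over the peaks nearest to each gene, up to 100 kb, for 18310 genes. Such sums are not comparable between genes, which differ in their number of peaks. With Fra2, 1767 gene sums were higher (9.65%) and 2638 lower (14.4%), 24.1% together, so 40.1% of called sums were higher, against 67.2% of called peaks. Without control 3 the counts were 1919 and 4447, which are 10.5% and 24.3% of genes. The direction of that split turned in other fits: 95.1% of called sums were higher with gene-end scaling (6236 and 324), 56.4% with loess (2481 and 1916), 54.3% from the 6 early libraries alone (404 and 340), 53.2% without control 1 and 51.1% without Fra2 replicate 3. From the 6 libraries alone, 59 of the 106 sums taken for description lost their call. A gene often held both kinds of peak: 7557 genes had a higher peak, 6085 a lower peak and 3176 both.

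The gene sum of smallest p among those that rose was that of the olfactory receptor gene Olfr654, which has 1 peak, with 2.63, 2.39 and 2.66 CPM in controls and 8.97, 9.19 and 9.15 CPM with Fra2 (1.83 ± 0.18, adjusted p = 7.54e-06). Olfactory receptor and Ly49 genes belong to large families whose similar copies can share reads, so their values are uncertain. Genes with several peaks rose less. Spock3, a secreted proteoglycan gene, had 42.4, 45.8 and 35.7 CPM in controls and 76.1, 68.6 and 83.3 CPM with Fra2 over 20 peaks, 10 of them higher (0.86 ± 0.09). Ptgir, the prostacyclin receptor gene, went from 25.2, 27.2 and 22.5 CPM to 44.9, 45.1 and 43.3 CPM (0.82 ± 0.09, adjusted p = 1.07e-05), and Prps1l1 from 26.1, 23.6 and 19.7 CPM to 48.0, 47.9 and 41.5 CPM (0.96 ± 0.10). Also higher were the mitotic kinesin gene Kif15 (0.76), the microtubule adaptor gene Hook1 (0.77), the mitochondrial carrier gene Slc25a21 (0.53), the tenascin gene Tnn (0.70), Zp3r (0.66), Clec12b (1.26), Olfr1416 (1.67) and Havcr2 (0.89). Tnc, tenascin C, had 22 higher and 0 lower peaks of 107, and Ltbp1, which binds latent TGF-beta, 21 higher and 2 lower of 69. Over all peaks 10.1% were higher and 4.91% lower. Without control 3 the counts were 22 and 3 at Tnc and 22 and 2 at Ltbp1. Both were taken from the genes with most higher peaks, a ranking by count whose other members are not matrix genes.

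Among the gene sums that fell were those of regulators known to respond to serum and growth factors. Egr1 had 180, 156 and 140 CPM in controls and 102, 107 and 98.4 CPM with Fra2, a log2 fold change of -0.64 ± 0.07 (adjusted p = 1.09e-05). The loss was spread along the locus, with 11 of 15 peaks lower and 0 higher. Id3, an inhibitor of bHLH factors, had 285, 305 and 231 CPM and then 198, 190 and 168 CPM (-0.57 ± 0.07, adjusted p = 4.73e-05), with 12 of 25 peaks lower. Cdkn1a, which encodes the cell cycle inhibitor p21, had 146, 156 and 141 CPM and then 108, 106 and 98.3 CPM (-0.50 ± 0.06, adjusted p = 1.81e-05), with 12 of 19 peaks lower. The losses were fewer on the other scale: with gene-end scaling Egr1 had 5 lower peaks, Id3 7 and Cdkn1a 6, and none had a higher one. Without control 3 the lower peaks were 10, 16 and 12.

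At Id3 and Cdkn1a the loss was not greatest at the promoter. At Id3 the 2 peaks with the lowest fold change lay past the gene (-1.12 each), one of them with 25.3, 26.3 and 18.9 CPM in controls and 11.0, 11.2 and 10.6 CPM with Fra2. Around Cdkn1a, log2 fold changes ranged from -1.28 to 0.42, with a median of -0.60, and the lowest was in the end of the gene body. Other lower sums were those of the signalling genes Arap1 (-0.45) and Pak4 (-0.47), the cytokine gene Il17b (-0.38), the ribosomal RNA transcription factor gene Ubtf (-0.43), the histone deacetylase gene Hdac5 (-0.37), Rhbdl3 (-0.52), Cox6b2 (-0.88), Cntnap1 (-0.72) and Tmem184a (-0.71). All 12 named sums that fell were also lower with gene-end scaling, at -0.18 to -0.69. Gse1, which is not among these 12, had the most lower peaks of any gene, 25 of 145, with 3 higher. Over all peaks 4.91% were lower and 10.1% higher. Its sum had a log2 fold change of -0.28 (edgeR adjusted p = 0.00134), but was not called with gene-end scaling (-0.10, adjusted p = 0.237).

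**Figure D4:**
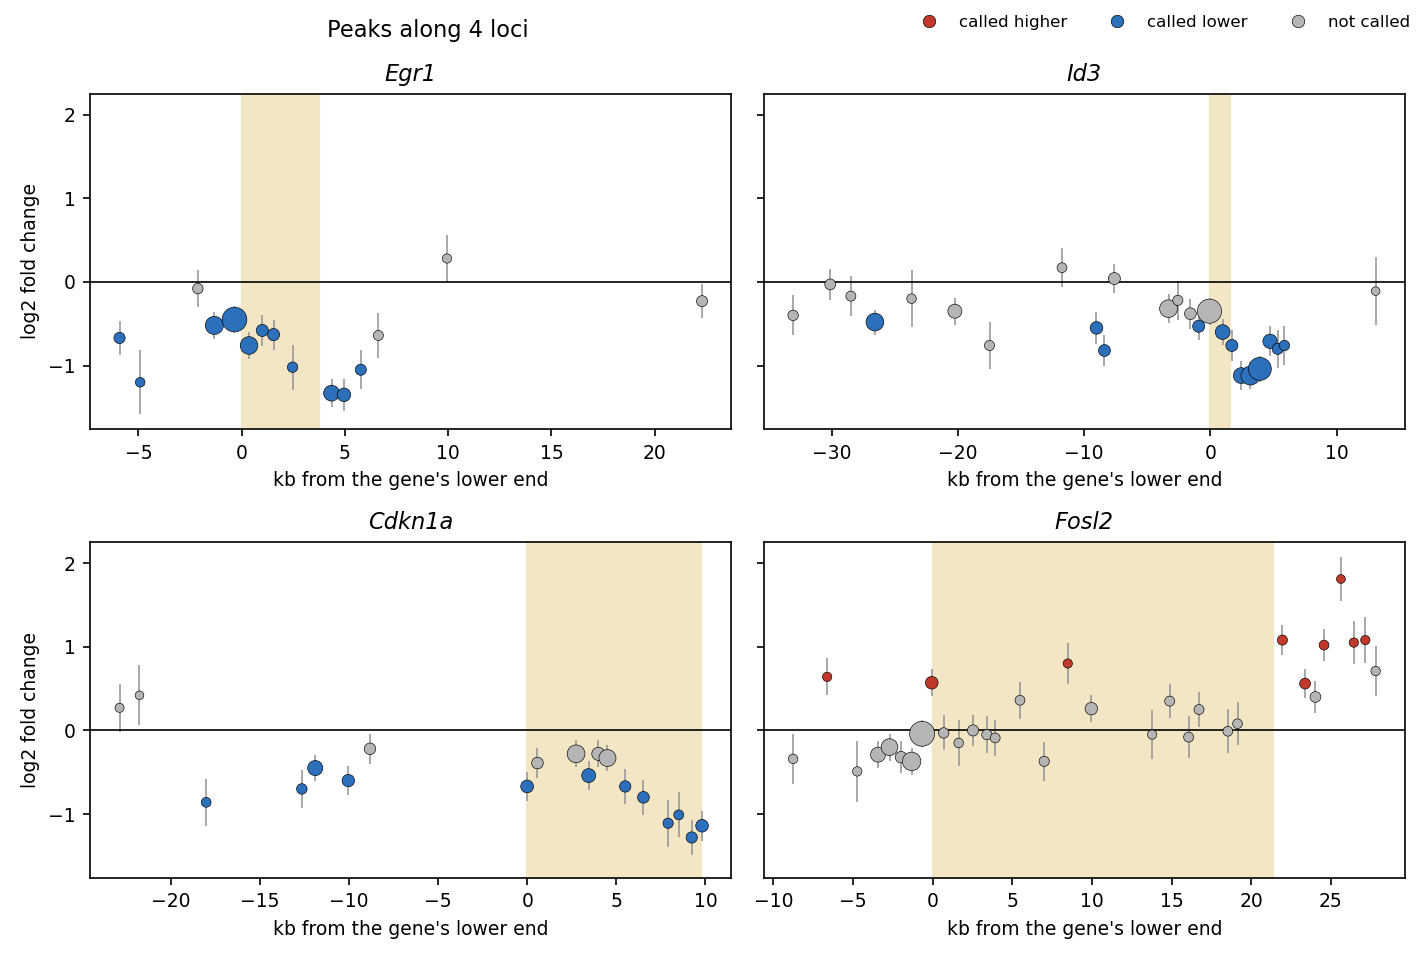
Log2 fold change of each peak (y axis, with SE as bars) along the loci Egr1, Id3, Cdkn1a and Fosl2 (x axis, kb from the gene's lower end); shading is the gene, a larger point a higher level, and called peaks are coloured. Of the peaks called, all at Egr1 (11), Id3 (12) and Cdkn1a (12) are lower and all 9 at Fosl2 are higher.

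Genes were then read by pathway, with the background of 10.1% of peaks higher and 4.91% lower, and a median of -0.03 over peaks. Over gene sums the background was 9.65% higher and 14.4% lower, with a median of -0.07, and with gene-end scaling it was 34.1% and 1.77%. Genes of AP-1 subunits and the related MAF and BACH factors had 24 higher and 39 lower of 414 peaks (median -0.12), which became 64 and 13 with gene-end scaling. Of their 23 gene sums 0 rose and 6 fell, against 6 and 3 with gene-end scaling. Junb, a JUN-family partner, fell from 122, 120 and 90.6 CPM to 84.6, 80.0 and 68.8 CPM (-0.52 ± 0.09, adjusted p = 0.000406), and the small MAF gene Mafg fell by 0.41. A peak in Bach1, a repressor that pairs with small MAFs, rose (1.11). Immediate-early genes had 25 higher and 57 lower of 438 peaks (median -0.15; 53 and 28 with gene-end scaling), and 0 of 25 sums rose while 11 fell, against 8 and 6 with that scaling. Per1, an immediate-early and clock gene, had 250, 235 and 185 CPM in controls and 172, 167 and 157 CPM with Fra2 (-0.44 ± 0.08, adjusted p = 0.000661). Yet a peak 80.1 kb from Klf6 rose from 1.88, 0.87 and 1.68 CPM to 5.51, 5.2 and 4.90 CPM (1.81), and one 30.1 kb from Egr2 rose as well (1.20).

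Upstream of AP-1, genes of the MAP kinase cascade had 36 higher and 22 lower of 412 peaks, and 3 of 28 sums rose while 7 fell, which became 10 and 0 with gene-end scaling. A peak in Egfr, the EGF receptor gene, rose by 1.32, and the promoter of the p38-family kinase gene Mapk12 fell by 0.73. Genes of feedback inhibitors of the cascade had 30 higher and 27 lower of 387 peaks and 0 called of 20 sums. At an unadjusted p under 0.05 0 sums were higher and 1 lower, DESeq2 called 0 higher and 0 lower, and gene-end scaling gave 9 higher and 0 lower. Peaks 49.8 kb from Spry2 (1.15) and 35.5 kb from Nf1 (1.08) rose, and a peak 0.8 kb from the phosphatase gene Dusp5 fell by 1.05.

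In both lists of genes for the contact of fibroblasts with matrix 73.8% of called peaks were higher, near the 67.2% over all peaks. Metalloproteinases and their inhibitors had 59 higher and 21 lower of 460 peaks (99 and 6 with gene-end scaling, 66 and 29 without control 3), and 6 of 30 sums rose while 1 fell. A peak 6.8 kb from Adam12, a membrane-anchored metalloproteinase gene, had 2.36, 1.81 and 1.82 CPM in controls and 7.64, 5.2 and 7.28 CPM with Fra2 (1.72 ± 0.22, adjusted p = 6.15e-08). Integrin and focal adhesion genes had 110 higher and 39 lower of 1077 peaks, 10.2% and 3.62%, close to the background for higher peaks. Within them a peak in Ptk2, the focal adhesion kinase gene, rose from 0.859, 1.52 and 1.68 CPM to 6.08, 7.03 and 6.49 CPM (2.36 ± 0.25, adjusted p = 4.27e-10), and the sum of Itga4, integrin alpha 4, from 45.2, 46.1 and 41.8 CPM to 69.5, 63.4 and 65.0 CPM (0.57 ± 0.08). At both the groups were apart.

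Growth factor and receptor kinase genes had 80 higher and 22 lower of 677 peaks (11.8% and 3.25%, median 0.05), against 10.1% and 4.91% of all peaks. With gene-end scaling these were 144 and 4. Of their 30 sums 9 rose and 2 fell, against 7 and 4 without control 3 and 20 and 0 with gene-end scaling. The sum of Fgf2 rose by 0.33, a peak in the neuregulin gene Nrg1 by 1.24, and a peak by Pdgfa had a log2 fold change of -1.11. Axon guidance genes, many of which also guide other cells, had 124 higher and 49 lower of 1125 peaks (11.0% and 4.36%), near the background. With gene-end scaling these were 235 and 7. In their list a peak 59.8 kb from Sema5a rose from 1.77, 2.97 and 2.10 CPM to 10.2, 8.71 and 7.49 CPM (1.96 ± 0.21, adjusted p = 5.18e-10). A peak in the body of the netrin receptor gene Unc5c rose by 1.48. WNT genes had 78 higher and 32 lower of 757 peaks (10.3% and 4.23%), also near the background. These were 88 and 47 without control 3 and 136 and 10 with gene-end scaling. Single peaks rose in Wnt2b (1.55) and the receptor gene Ror2 (1.68).

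In lists of BMP, NOTCH, circadian clock and BAF genes losses were a larger share of the calls than over all peaks. With gene-end scaling each turned toward gains, as did all peaks (92.5% of calls higher). BMP genes had 48 higher and 50 lower of 540 peaks (85 and 17 with that scaling). The BMP targets Id3 and Id1 fell, Id1 from 114, 109 and 89.3 CPM to 80.8, 81.7 and 79.1 CPM (-0.39 ± 0.07, adjusted p = 0.000994), while a peak in the receptor gene Bmpr1b rose (1.62). NOTCH genes had 29 higher and 38 lower of 430 peaks (62 and 12), with a gain in the ligand gene Jag1 (1.72). Circadian clock genes had 29 and 39 of 400 (60 and 11), with a gain at Clock (1.35) and a loss at Per2 (-1.10). BAF remodelling genes had 26 and 24 of 426 (58 and 5), and 8 of their 27 sums fell while 0 rose, against 0 and 6 with that scaling. Genes of NF-kappa-B had 32 and 19 of 330 peaks (63 and 4), 9.7% and 5.76%, near the background, and the sum of Rela fell by 0.47.

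The last pathway lists described had 81 to 345 peaks each. Cell cycle genes had 31 higher and 9 lower of 345 peaks. Of their 32 sums 1 was higher and 6 lower, 3.12% and 18.8%, the latter near the 14.4% of all sums (9 and 1 with gene-end scaling). The lower sums included the replication licensing gene Cdc6, which fell by 0.46 on the log2 scale. Without control 3 those peaks were 35 higher and 36 lower. Endoplasmic reticulum and heat stress genes had 24 and 13 of 235 peaks, with the sum of Asns, asparagine synthetase, rising from 47.3, 44.3 and 41.0 CPM to 70.7, 60.1 and 68.7 CPM (0.58 ± 0.07, adjusted p = 3.1e-05). Cholesterol synthesis genes had 15 and 10 of 203, with gains at Scap (1.5) and Lss (1.13). Epidermal genes had 11 and 7 of 81.

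**Figure D5:**
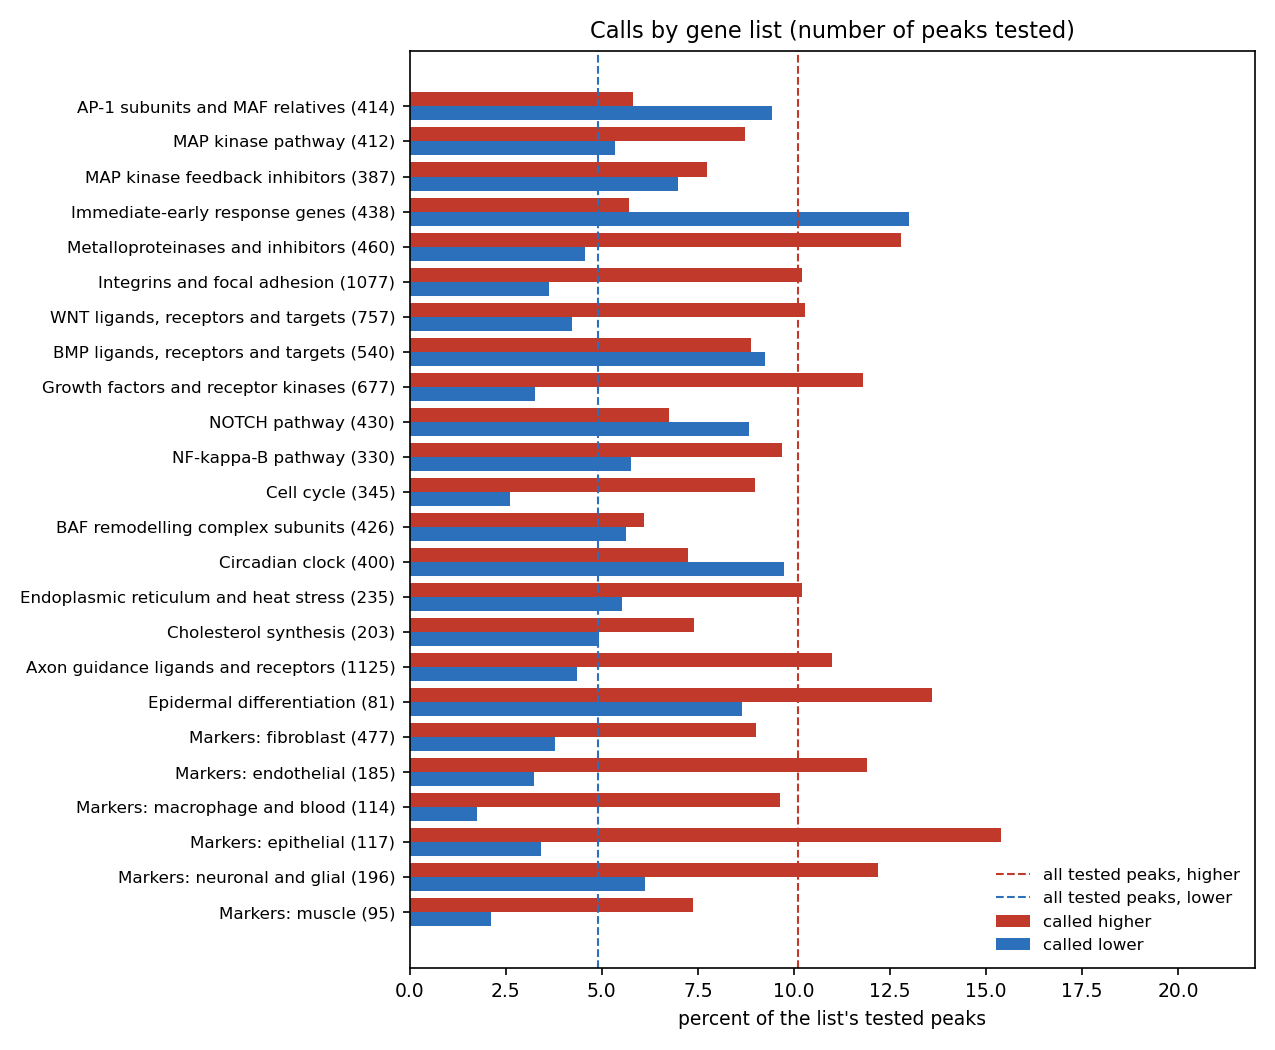
Bars give the percent of each gene list's tested peaks called higher and lower (x axis) by list (y axis, number of peaks in brackets), and dashed lines the shares over all peaks, 10.1% and 4.91%. Furthest past the line for higher peaks are epithelial markers (15.4%), epidermal genes (13.6%), metalloproteinases (12.8%), neuronal markers (12.2%), endothelial markers (11.9%) and growth factors (11.8%). Furthest past that for lower peaks are immediate-early (13%), circadian (9.75%), AP-1 (9.42%), BMP (9.26%) and NOTCH (8.84%) genes.

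Markers of fibroblasts and of the sort were accessible in every library. The sum at Thy1, which encodes the sorted surface protein, was 186, 173 and 144 CPM in controls and 172, 164 and 156 CPM with Fra2 (-0.04, adjusted p = 0.691), and the groups overlapped. Its direction depended on the fit, being 0.16 with gene-end scaling (adjusted p = 0.0117) and -0.13 without control 3 (adjusted p = 0.0458). Of the 25 peaks at Thy1 1 was higher and 2 lower, against 10.1% and 4.91% of all peaks. The one 0.1 kb from an end of the gene had a log2 fold change of -0.51 (edgeR adjusted p = 0.0321), and -0.66 without control 3. Its groups overlapped, and it was not called with gene-end scaling (-0.31) or from the 6 early libraries alone. Fibroblast markers had 43 higher and 18 lower of 477 peaks (9.01% and 3.77%). Their summed level was 2094 to 2403 CPM in controls and 2249 to 2422 CPM with Fra2. Of their 19 sums 2 rose and 1 fell, against 1 and 6 without control 3 and 8 and 0 with gene-end scaling. The sum of Fbn1, the gene of the matrix protein fibrillin 1, rose by 0.37 (adjusted p = 0.00229), with 12 of 56 peaks higher, and that of Dcn, decorin, by 0.36 (adjusted p = 0.0414; 0.19 and 0.0898 without control 3). Pdgfra, a fibroblast receptor gene, fell by 0.30 (adjusted p = 0.0123; -0.11 and not called with gene-end scaling). From the 6 early libraries alone none of these 3 passed (adjusted p = 0.0669, 0.169 and 0.0938), and Col1a1 (-0.11) and Prrx1 (0.08) did not pass the test. Epithelial markers had 18 higher and 4 lower of 117 peaks (15.4% and 3.42%), with summed levels of 500 to 584 CPM against 584 to 631 CPM. Endothelial markers had 22 and 6 of 185 (797 to 804 against 824 to 849 CPM) and macrophage and blood markers 11 and 2 of 114 (486 to 502 against 525 to 528 CPM). Neuronal and glial markers had 24 and 12 of 196 (781 to 803 against 796 to 823 CPM) and muscle markers 7 and 2 of 95 (346 to 381 against 344 to 354 CPM). Of the 15 macrophage and blood markers 4 had no peak. None of the defining markers Ptprc, Cdh5, Epcam and Myod1 was at 0 in its sum. The sums of the endothelial marker Cdh5 (0.22, adjusted p = 0.0126) and the epithelial marker Epcam (0.27, adjusted p = 0.0225) rose with Fra2, though neither passed from the 6 early libraries alone (adjusted p = 0.115 and 0.132), and Epcam was -0.16 when only peaks within 10 kb were summed. Ptprc (-0.01) and Myod1 (-0.41) did not pass the test. The groups were apart in the sum of Cdh5. They overlapped in that of Epcam, where control 1 had 52.7 CPM and Fra2 replicate 3 had 51.7 CPM. Other members of both lists fell. Of the 15 endothelial marker sums 3 were higher and 3 lower, the latter including Egfl7 (-0.27) and Mmrn2 (-0.45). Of the 15 epithelial marker sums 3 were higher and 1 lower, Rab25 (-0.66). Neither Egfl7, Mmrn2 nor Rab25 passed from the 6 early libraries alone (adjusted p = 0.0726, 0.0824 and 0.132). With gene-end scaling 8 endothelial and 10 epithelial sums were higher and 0 lower, and 34.1% of all sums were higher. Without control 3, 4 endothelial sums were higher and 3 lower, and 4 epithelial sums were higher and 2 lower. The part of other cell types in the results was not tested.

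Peak lists called by the authors come from the same libraries as the counts. A difference between groups in these lists therefore follows in part from the choice of called peaks, and is a description only. Of the higher peaks, 2864 (13.8%) were listed in 3 of 3 Fra2 libraries and 0 of 3 controls, against 2.63% of all peaks. Of the lower peaks, 281 (2.77%) were listed in 0 of 3 and 3 of 3, and 1237 (12.2%) in 0 of 3 and in both of controls 1 and 2, against 0.215% and 1.63% of all peaks. Control 3 had a short list that held 35.4% of peaks. Changes were also clustered. Where a peak's neighbour within 5 kb was higher, the next peak was higher in 17.3% of cases, and in 7.87% where it was not called. For losses these shares were 10.6% and 5.28%.

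The same contrast at the late time, labelled day 10, gave 13301 higher (6.45%) and 7300 lower (3.54%) peaks. Of the early gains 7353 were also gained late, 35.4% of early and 55.3% of late gains, and of the early losses 1603 were also lost late, 15.8% and 22%. The early and late effects shared no libraries. A test of the difference between the effects called 193 peaks (0.0935%), 169 more positive early (0.0819%) and 24 more negative (0.0116%). Without control 3 these were 435 and 96. At the Tbc1d32 peak the late log2 fold change was 0.91, and the difference of 1.22 passed (adjusted p = 0.0263). The Olfr654 sum did not rise late (-0.14), and its difference of 1.97 passed (adjusted p = 0.000802). Promoter gains at Cacna1c (late 0.00, difference 1.19, adjusted p = 0.0581) and Runx1 (late 0.40, difference 0.79, adjusted p = 0.297) did not pass that test, so a change limited to the early time was not shown for them. The Aspg promoter was lower at both times, by -1.35 early and -1.52 late.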

How the data were processed

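Deposited data were a table of whole-number read counts per consensus peak for 15 libraries and 1 peak list per library. Per the submitters' processing notes peaks were called with MACS2 on mm10; how reads were aligned and counted and the consensus made is not given in the sources used here. In the lists, columns deposited by the authors are a fold ratio over background and −log10 p and q values, used only to count which libraries list a peak. Members and lists were chosen with earlier results of these data known.

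edgeR 4.0.16 (R 4.3.3, TMM factors, low-count filter) fitted all 15 libraries together, to share the spread, with 1 coefficient per group; standard errors are the log2 fold change over the root of F. Each peak went to the closest RefSeq protein-coding gene up to 100 kb away, and summed per gene. Promoter windows were available for 17491 of 21896 protein-coding genes, and for none on chromosome 18. Promoters of the other genes were not analysed as such, and peaks at their starts were counted in the remaining position classes. Named genes are the target, the peaks, promoters and sums of smallest adjusted p with groups apart and called without control 3, the top members of each list, genes with most called peaks, and markers. Counts over 206349 peaks were simulated from mean levels of all 15 libraries and the fitted trend of spread. They held no spread particular to a peak and no deviation of control 3 beyond its depth. Changes were set only at some peaks above the median level. Of these, 83% of 2-fold and 14% of 1.5-fold changes were recovered, with 1 unchanged peak called. Recovery at lower peaks, or in the data themselves, was not tested. Alternatives were DESeq2 1.42.0, other scalings (limma 3.58.1 for loess) and filters, 6 libraries only, a replicate block, and leaving out each replicate. A few genes and 1 list are not reported here. Depth was 6.75 to 25.3 M reads in peaks.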

Additional observations from a re-analysis of the deposited data

Results flagged for a closer look

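The early and the late Fra2 effect differed, by a test of the difference itself (edgeR, adjusted p under 0.05), at 193 peaks; without control 3, 435 peaks were more positive early and 96 more negative. The Tbc1d32 peak, one of the 10 gains of smallest p, had an early effect larger than its late effect by 1.22 on the log2 scale (adjusted p = 0.0263). Its early level was 4.11 ± 1.64 CPM (SD, n = 3) in controls and 19.4 ± 3.90 CPM (SD, n = 3) with Fra2, and the late means were 6.07 and 11.4 CPM.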

How the results depend on the processing

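Peak calls, higher and lower, were 38036 and 3074 with gene-end scaling, 46876 and 3257 with it and without control 3 (chosen after seeing the data), 11795 and 3204 from the 6 early libraries alone, and 16813 lower with loess. Leaving out 1 replicate gave 14143 to 24351 higher and 5573 to 15967 lower. Gene sums were 6236 and 324 with gene-end scaling and 404 and 340 from the 6 libraries; leaving out 1 replicate gave 1151 to 1919 and 1483 to 4447, and without control 1 (1864 and 1641) or Fra2 replicate 3 (1547 and 1483) more sums rose than fell. Lower peaks moved by over 1.5 times without control 2 (6607), control 3 (15967), Fra2 replicate 1 (5573) or 2 (6665), and lower sums without control 1, control 2 (1569), control 3 (4447) or Fra2 replicate 3; higher sums did without Fra2 replicate 1 (1151). DESeq2 (18401 and 9647 peaks) and other filters stayed within 1.5 times. The difference between early and late effects was called at 310 and 15 peaks with DESeq2, 366 and 40 with gene-end scaling and 435 and 96 without control 3. Promoter peaks were 583 and 2103 when taken within 1 kb of a gene end, 273 and 272 with gene-end scaling, and 2623 lower with loess and 3940 lower without control 3. Lower peaks listed in 3 of 3 controls and 0 of 3 Fra2 libraries were 70 at q of at most 0.01 and 169 when the list had to cover more of the peak. The Epcam sum reversed to -0.16 and that of Cldn5 to -0.12 with peaks within 10 kb, and that of Wnt11 to 0.01 with gene-end scaling; the cause was not tested. Of 150 named peaks, 145 kept their call with gene-end scaling and 142 from the 6 libraries alone; of 106 named sums, 75 and 47. Same-numbered replicates correlated at 0.262, -0.008 and 0.232, and differently numbered ones at -0.272 to 0.117. The values for numbers 1 and 3 were thus the highest, and whether the numbers pair the libraries is not known. The main test used no pairing. A replicate block in the 6 early libraries gave 17244 and 7534 peaks and 1666 and 2540 sums. Without the block these libraries gave 11795 and 3204 peaks and 404 and 340 sums. A count of 3 is 0.42 CPM in control 3 and 0.142 CPM in Fra2 replicate 1, so low peaks are least precise in control 3.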
